A study of Mus musculus with 6 samples.

Results

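Npas4, which encodes neuronal PAS domain protein 4, was the gene examined, and it was found by its symbol in 1 row (MGP_BALBcJ_G0024650) of the authors' deposited table of 637 genes. It was chosen by its read counts in the 2 groups, so these values, and all others from the same contrast, are given as a description with no test. Every listed gene has an adjusted p below 0.05 (largest 0.0499). Ranks, shares and counts of listed genes therefore describe called genes only. The study profiled hippocampal RNA by sequencing in wild type C57BL/6 mice at 56 days of age. One group of 3 samples underwent focal middle cerebral artery occlusion (MCAO), which blocks a main artery of the forebrain, and is called ischemia here. The other group of 3 samples underwent a sham operation, and the titles give 2 h for both. The sources used here do not say whether this is the time of occlusion or a time after it, or whether a sample is 1 animal or a pool. The 2 value columns are headed M2 and S2 and were read as MCAO and sham, and each direction below rests on that reading.

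Npas4 belongs to the bHLH-PAS family, transcription factors that bind DNA in pairs, and its partners are Arnt and Arnt2. It is made mainly in neurons and is very low at rest. Calcium that enters through NMDA receptors or L-type calcium channels switches its transcription on within minutes, with no need for new protein, which makes it an immediate-early gene. In the hippocampus it is known for adjusting the inhibitory synapses that pyramidal cells receive, in part through the neurotrophin gene Bdnf, and for a role in contextual memory.

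Calcium signalling reaches such genes in part through the cAMP response element (CRE), the site bound by the transcription factor CREB. The full CRE is TGACGTCA, its palindromic core is GACGTC and its shorter form is TGACG. These were searched on both strands in the 250 bases before each start site in the RefSeq promoter table (GRCm38.p6), where a full CRE also counts as 1 core and as 2 shorter forms. The Npas4 window held 2 cores and 0 full elements. The cores spanned -181 to -176 and -168 to -163 from the start site. A core was present in 4.29% of the 27025 genes of that table, and 2 or more in 0.189% (51 genes), so the pair is uncommon over all genes. The GENCODE M21 annotation has a coding Npas4 transcript that starts further upstream and places all 250 bases in its untranslated leader, so whether these cores lie before or inside the transcript depends on the annotation.

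The stretches that hold the match nearest to the start site are shown for Npas4 and for named genes whose means were most like its own, to let the matches be compared. Capitals mark the core where there is one and otherwise the shorter form, on either strand. Of the 8 genes with a symbol that were nearest to Npas4 in their means, 7 were in the promoter table and 6 of these had a match. Errfi1 and Arl5b, which encodes a small GTPase, each held a full element, and Arl5b was the 1 of the 7 with 2 cores as well.
Npas4 (chr19:4990129-4990158, minus strand): ccgttcGACGTCacgggatGACGTCggaag
Fosb (chr7:19310089-19310118, minus strand): atggagttgcgggTGACGcaagcgcggggg
Fos (chr12:85473811-85473840, plus strand): cagttccgcccagTGACGtaggaagtccat
Egr4 (chr6:85513682-85513711, minus strand): gtttggtcatttaCGTCAcggcgccagggc
Rgs2 (chr1:144004200-144004229, minus strand): cttggggcgtggcTGACGcctccaggtccc
Errfi1 (chr4:150855008-150855037, plus strand): gctgcgggcgttGACGTCacgttgtcgctc
Arl5b (chr2:15055195-15055224, plus strand): ccgctGACGTCagcgcgccGACGTCacgtg

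The same search over the genes the authors listed found a core in 44 of 277 higher genes in the promoter table (15.9%) and in 5 of 151 lower genes (3.31%). Of these genes, 7 higher ones, Npas4 among them, and 1 lower one held 2 or more cores. The shorter form was present in 51.6% of the higher genes, 23.2% of the lower genes and 19.8% of all genes of the table. Of the genes listed here as activity-dependent transcription factors, 25 were in the promoter table. Among these, 19 had the shorter form and 7 had a core, and Npas4 was the only 1 of these 25 with 2 cores. Of 22 activity-induced effectors in the promoter table, a list described below, Arl5b and Dusp1 also had 2 or more cores. The Npas4 window held 0 matches to TCGTG, the short site that Npas4 and its partner bind. It also held 0 matches to TGAGTCA, the AP-1 site, and 0 to the CArG box of the serum response factor. A TATAA stretch lay at -26 to -22. These matches describe letters in 1 window and show no binding.

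In the authors' deposited table, Npas4 had a mean of 649 normalised reads in sham and 49652 in ischemia. A normalised read count is a number of reads per gene adjusted for the depth of each library, here averaged by the authors over a group. The ratio is 76.5, or 6.26 on the log2 scale, and the rise in reads was 49003. No standard deviation accompanies the means. In this bulk tissue, a change in the number of cells that express a gene and a change in RNA per cell cannot be told apart.

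**Figure D1:**
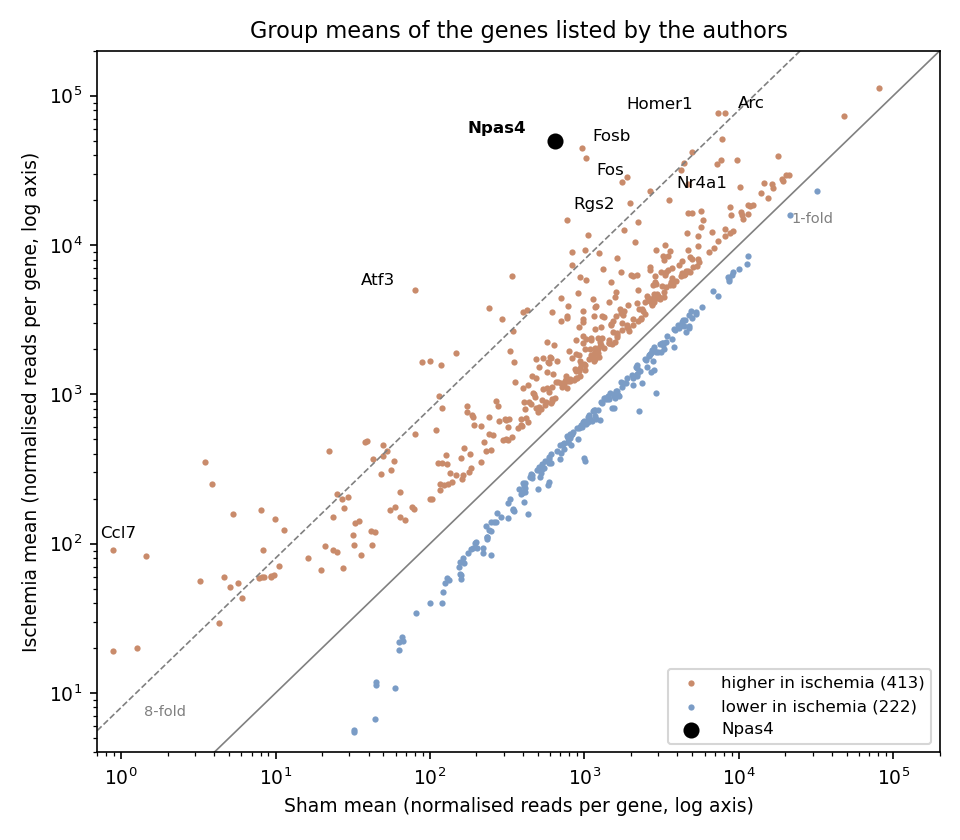
Each point is a gene listed by the authors, with its sham mean on the horizontal axis and its ischemia mean on the vertical axis, both in normalised reads per gene on log axes; the 2 genes listed at 0 in sham are not drawn. Npas4 lies above the dashed 8-fold line at 649 and 49652 normalised reads, with Fosb and Fos as its closest neighbours.

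In sham, Npas4 stood in the lower part of the listed genes, and in ischemia near the top. Its sham mean in the authors' deposited table was the 385th highest of 637, and it made up 0.0447% of all listed sham reads. In ischemia it was the 6th highest and made up 1.80% of listed reads, a share 40.4 times as large. Long genes collect more reads, so levels were also set per kilobase of exon for the 564 genes with a length in GENCODE M21. On that scale Npas4 (4.14 kilobases of exon) stood at 157 normalised reads per kilobase in sham and 12005 in ischemia, ranks 343 and 11 of 564. Its rise in reads was the third largest in the table, after those of Arc (68872) and Homer1 (68743), which act at the synapse, and made up 3.38% of the summed rises of the 415 higher genes.

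By ratio Npas4 ranked 5 of the 415 higher genes, and the 4 ahead of it were scarce in sham. Of these, 2 are listed at 0 in sham. The monocyte chemokine gene Ccl7 went from 0.880 to 90.0 normalised reads and the collagen gene Col10a1 from 3.52 to 353, per the authors' deposited table. Among the 364 higher genes with a mean of at least 50 normalised reads in both groups, Npas4 had the largest ratio. The authors' deposited table puts next the stress-induced factor Atf3 (62.6-fold), then Fosb (46.4-fold) and Fos (37.4-fold), which encode subunits of the AP-1 dimer, then a gene without a symbol (MGP_BALBcJ_G0016515, 18.9-fold) and the kinase gene Pim1 (18.5-fold). The median ratio of all 415 higher genes was 2.10.

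Of the 61 listed genes with at least 10000 normalised reads in ischemia, Npas4 had the lowest sham mean. Most of the 61 were read often in sham as well, and 13 had a ratio of 8 or more. Another 10 genes had an ischemia mean within 1.5-fold of its own. Their sham means ran from 970 (Fosb) to 47678 (the chaperone gene Hsp90aa1) normalised reads, per the authors' deposited table.

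Called genes that started from the same level gave the reverse view. In the authors' deposited table, 122 other genes had a sham mean within 1.5-fold of that of Npas4, between 433 and 974 normalised reads. Of these, 75 were higher in ischemia and 47 lower, and the median ratio of the higher ones was 1.93. Only 4 of the 122 had a ratio of 8 or more, led by Fosb, whose ratio was 60.6% of that of Npas4. Among genes with a symbol, the 8 closest in sham mean included 7 that were higher. The phosphatase gene Ppm1d went from 656 to 1214 normalised reads, Phf13 from 669 to 1682 and Csrnp1, a nuclear factor induced by growth signals, from 621 to 3548, per the authors' deposited table. Arid5a (3.35-fold), Utp14b (2.19-fold), Entpd1 (1.51-fold) and Fam57a (1.47-fold) also rose, while the replication gene Mcm6 fell by 0.67 on the log2 scale, per the authors' deposited table.

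Likeness to Npas4 was measured, among genes with a symbol, as the Euclidean distance between genes in log2 sham mean and log2 ischemia mean, over the 2 groups. Fosb was nearest (distance 0.60) and Fos next (0.76). Per the authors' deposited table, the mean of Fosb went from 970 to 44937 normalised reads and that of Fos from 1023 to 38253, so both began higher than Npas4 and ended lower. A wide gap followed, then the neuronal pentraxin gene Nptx2 (1.70), the zinc finger factor Egr4 (1.74), the G protein signalling regulator Rgs2 (2.12) and the growth arrest gene Gadd45g (2.20). The growth factor receptor inhibitor Errfi1 (2.32) and Arl5b (2.47) closed the 8 with a symbol. A gene without one, MGP_BALBcJ_G0016515, lay at 1.78, between Egr4 and Rgs2. The 6 named after Fos began at 1054 (Gadd45g) to 2667 (Errfi1) normalised reads and reached 11696 (Gadd45g) to 28505 (Egr4), per the authors' deposited table. Per kilobase of exon, Fosb started level with Npas4, at 155 against 157 normalised reads in sham, and ended lower, at 7198 against 12005 in ischemia. Fos stood higher than Npas4 on that scale in both groups, at 435 and 16264 normalised reads per kilobase.

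Npas4 had the smallest p-value that the authors' deposited table lists, p = 1.24e-317, with an adjusted p = 3.51e-313. In terms of -log10, this is 317, against 93.7 for the next gene, the orphan nuclear receptor Nr4a1, and 49.2 for the third, the phosphatase gene Dusp1. The median over all listed genes was 4.16. It is the only listed p-value below 2.23e-308, the smallest number that double precision holds with full digits, so its last digits carry no meaning. This p-value belongs to the contrast for which the gene was picked and is not evidence of its own.

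**Figure D2:**
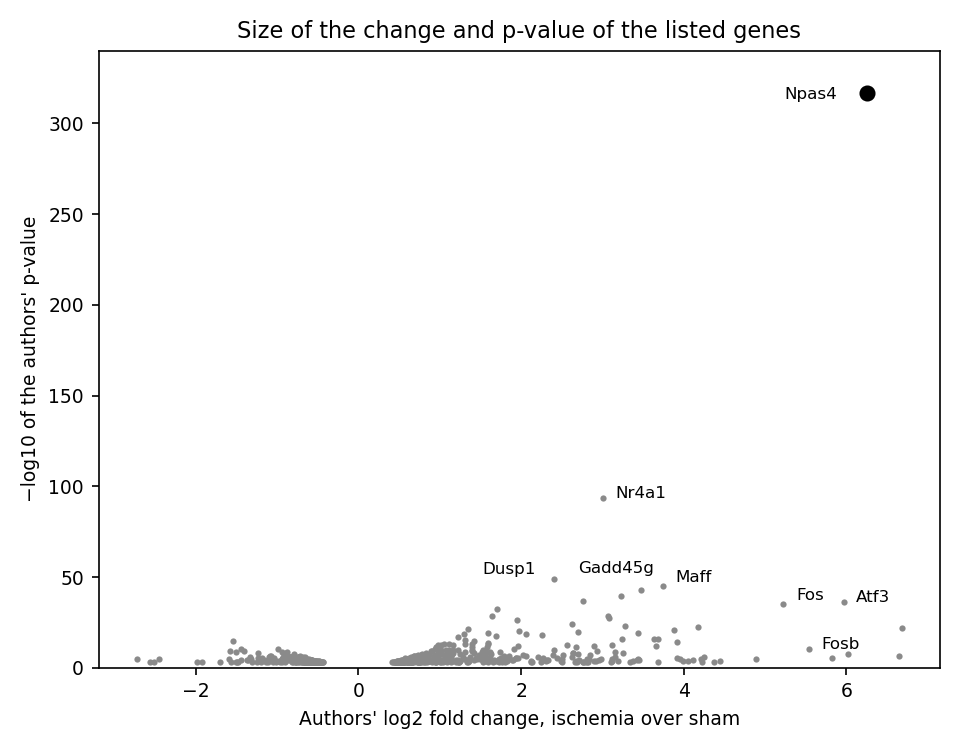
Each point is a listed gene with a finite ratio, placed by the authors' log2 fold change of ischemia over sham (horizontal axis) and by -log10 of the authors' p-value (vertical axis). Npas4 stands alone at 317, while Fosb (46.4-fold) and Atf3 (62.6-fold), which also have large ratios, lie below 50.

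The 3 named genes nearest to Npas4 in their means had far larger p-values. The authors' deposited table gives adjusted p = 1.24e-08 for Fosb, adjusted p = 3.50e-32 for Fos and adjusted p = 0.000781 for Nptx2. To put these on 1 scale, the standard error (SE) was computed at which a two-sided normal test of the log2 fold change would return the authors' p-value. The sources used here do not name the authors' test, so this implied SE compares genes and is not a measured spread. It was 0.16 for Npas4, 0.83 for Fosb, 0.42 for Fos, 0.86 for Nptx2 and 0.87 for Homer1, all on the log2 scale. Among the 48 genes with a finite ratio of 8 or more, Npas4 had the second lowest implied SE, after Nr4a1 (0.15), and the median of the other 47 was 0.81. Against all genes it was ordinary: 216th lowest of 635, and 21st lowest of the 61 genes with at least 10000 normalised reads in ischemia.

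The 3 sham libraries behind the Npas4 mean could be separated in part. The group mean is a sum of whole reads, each multiplied by a fixed step that depends on its library, and the steps were recovered from the lowest means. For Npas4 in sham, 3 sets of whole reads return the printed mean, and the printed digits do not choose between them. Libraries are lettered A to C from the largest size factor (relative depth, 1.20) to the smallest (0.874), and cannot be linked to replicate numbers. The first set has 960, 517 and 595 reads in libraries A, B and C, or 800 (799.953), 467 and 681 normalised reads (SD 169, n = 3). The second has 438, 273 and 1168 reads, or 365, 247 and 1336 normalised reads (SD 598). The third has 2077, 164 and 60 reads, or 1731, 148 and 68.6 normalised reads (SD 938).

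All 3 sets leave the sham libraries far below the ischemia mean. The highest single sham library in any set, 1731 normalised reads, is 28.7-fold below it. In the first set, which is the most even, the ischemia mean is 62.1-fold, 106-fold and 73.0-fold above libraries A, B and C. The log2 fold change of 6.26 would be 7.34 without library C in the second set and 8.84 without library A in the third, the libraries that hold most of the reads there. The ischemia mean of Npas4 is too large for such a separation, so the spread between its 3 ischemia libraries is not known and whether the groups overlap cannot be read from the file.

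For 9 other activity genes, the sham mean had 1 possible separation. Library C was highest in 7 of these 9 and library B lowest in 6. Over all 201 listed genes that could be separated, library C was highest in 75, library B in 71 and library A in 55, and the lowest was library A in 73, library B in 71 and library C in 57. Egr2, a zinc finger factor of the same immediate-early class, had 401, 199 and 423 normalised reads in sham libraries A, B and C. Klf4, a Kruppel-like factor, had 309, 191 and 328 normalised reads. Atf3 was more even, at 78.3, 72.3 and 90.4 normalised reads. For Npas4, library B was the lowest in the first and second sets, and library C was the highest in the second and library A in the other 2. Over the 9 genes the coefficient of variation in sham ran from 0.0268 (Pim1) to 0.363 (Egr2). Over the 201 genes it ran from 0.0231 to 1.27, with a median of 0.166. For Npas4 it was 0.260, 0.921 and 1.44 in its 3 sets, so the third set lies above all 201 genes. All 3 values exceed the median of the 201 genes, so the low implied SE of Npas4 does not mean that its sham libraries were even.

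**Figure D3:**
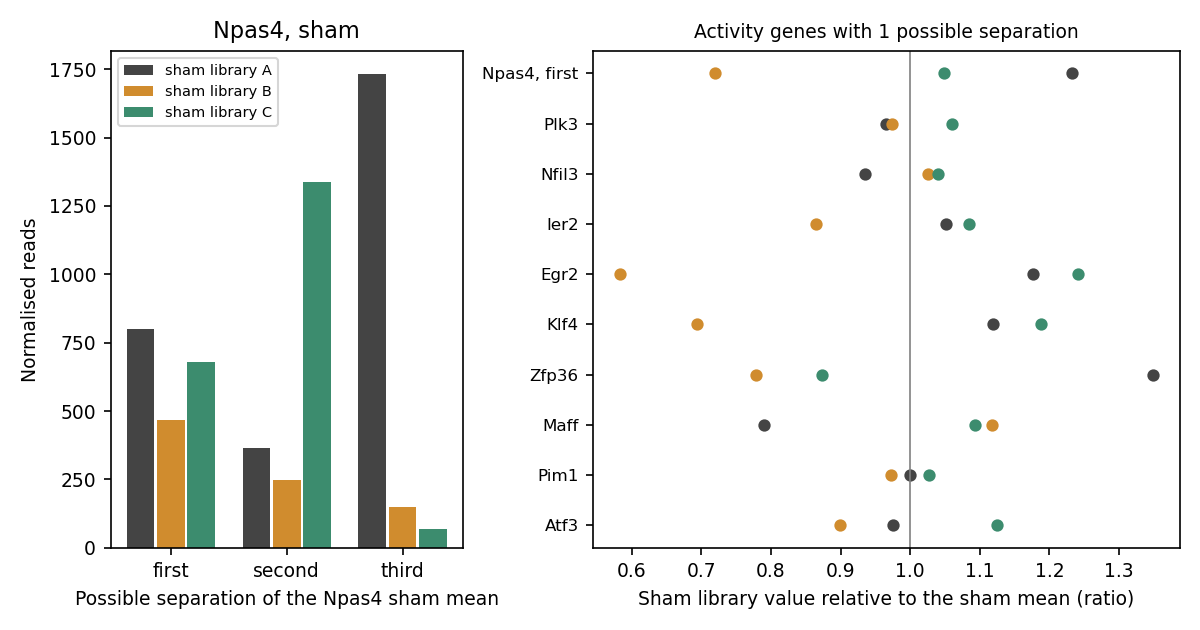
The left panel shows bars of normalised reads of Npas4 in sham libraries A, B and C under each of the 3 possible separations, from 68.6 to 1731. The right panel shows points for each sham library as a ratio to the gene's sham mean, for the 9 activity genes with 1 possible separation and for the first separation of Npas4; library B is the lowest in 6 of the 9 genes.

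Of the other 21 genes on a list of the bHLH-PAS family, its coactivators and other PAS genes, 1 was called. This was the clock gene Per1, 2.96-fold higher (adjusted p = 7.35e-07), per the authors' deposited table. Over all 28319 genes taken to have been tested, 1.47% were called higher and 0.784% lower, and 1 of 21 is no result about the family. Neither of the DNA-binding partners Arnt and Arnt2 was listed, nor were the brain paralogs Npas1, Npas2 and Npas3. Genes without a call are not in the table, so their levels are not known.

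Of 34 genes on a list of glutamate receptors, calcium channels and signalling regulators upstream of Npas4, 1 was higher and 1 lower. The shares over all tested genes were 1.47% and 0.784%, and 1 call each way is no result about the list. The serum response factor gene Srf rose 1.94-fold (adjusted p = 2.13e-09), and Ep300, a histone acetyltransferase that acts with CREB, fell by 0.57 on the log2 scale (adjusted p = 0.00480), per the authors' deposited table. CREB itself (Creb1), its coactivators Crtc1 and Crtc2, the MEF2 factors, the calcium channels Cacna1c and Cacna1d, the calmodulin kinases and the NMDA receptor subunits on the list were not called.

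Genes listed here as activity-dependent transcription factors, most of them immediate-early genes, rose along with Npas4 in most cases. The list also holds some that are not DNA-binding factors, such as Zfp36 and Btg2. Of the 32 genes besides Npas4 on the list, 26 rose, 0 fell and 6 were not called, against 1.47% of all genes called higher. The list was drawn up with earlier results of these data known, so the comparison with that share is no test. The median ratio of the 26 was 6.10, per the authors' deposited table. Egr2 rose 18.1-fold and Egr4 15.1-fold. The AP-1 subunit Junb rose 8.42-fold and Fosl2 7.46-fold, and the orphan receptor genes Nr4a3 and Nr4a1 rose 5.42-fold and 8.01-fold, per the authors' deposited table. The smallest rises among them were those of Srf and of Mafk (log2 fold change 0.98). Npas4 had the largest ratio of the list, and Atf3, second, started from 80.3 normalised reads and reached 5027, per the authors' deposited table.

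**Figure D4:**
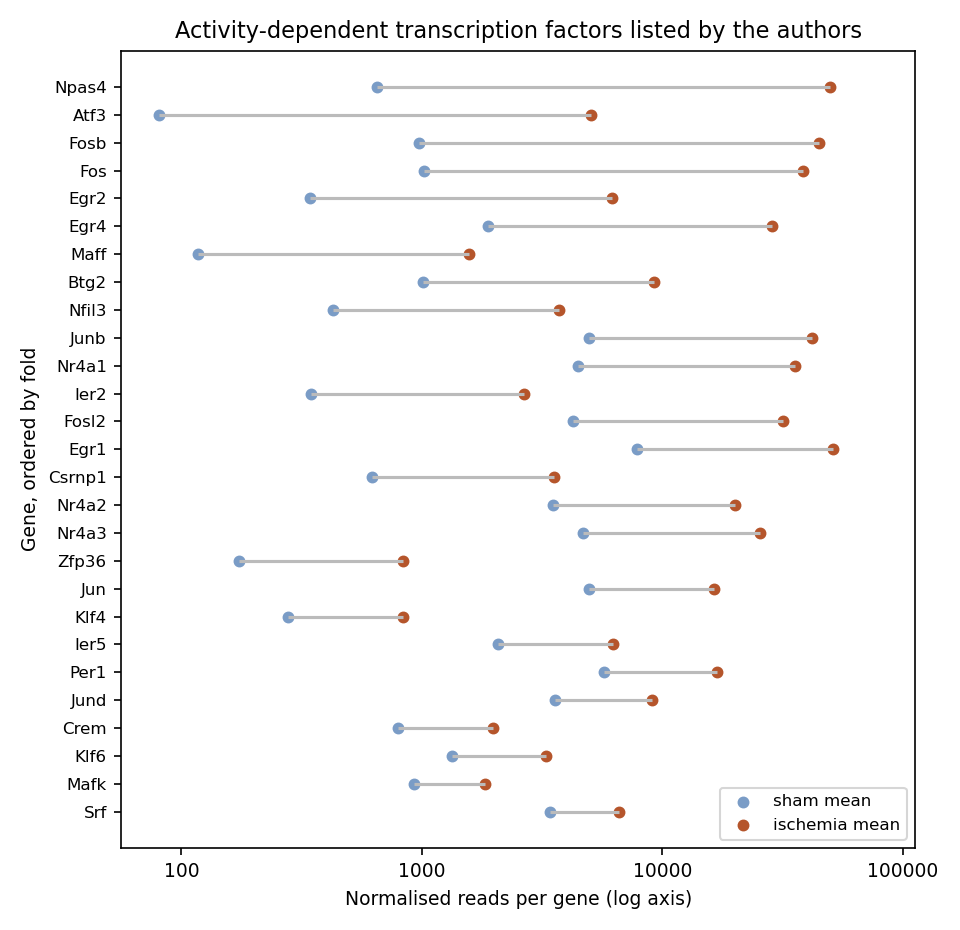
Each line joins the sham mean and the ischemia mean of 1 called gene on the list of activity-dependent transcription factors. Means are in normalised reads per gene on a log axis, with genes ordered by ratio. Npas4 is at the top, from 649 to 49652, and Srf at the bottom, from 3396 to 6599.

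Genes that neurons switch on with activity and that act in signalling or at the synapse also rose in most cases. Of 31 such genes, 23 rose, 0 fell and 8 were not called, against 1.47% of all tested genes called higher and 0.784% lower. This list too was drawn up with earlier results known, so the comparison is no test. Ratios of the 23 ran from 1.77 (the neurofilament gene Nefm) to 18.5 (Pim1), with a median of 5.68, per the authors' deposited table. Dusp1, a phosphatase that switches off MAP kinases, rose 5.27-fold, and Gadd45b, a relative of Gadd45g, rose 8.87-fold, per the authors' deposited table. The kinase gene Sik1 rose 4.18-fold and the granin gene Scg2 3.83-fold, per the authors' deposited table.

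Known and candidate targets of Npas4 were taken as a list of 22 genes. It was compiled without a literature search and with earlier results of these data known, so its count is no test. Many of its members also answer to other activity-dependent factors. Of the 22, 14 rose, 0 fell and 8 were not called, against the same 1.47% and 0.784% of all tested genes. All 14 are also on the activity lists above, so this count is not a separate result. The median ratio of the 14 was 6.97, per the authors' deposited table. Bdnf went from 2231 to 14342 normalised reads (6.43-fold, adjusted p = 0.0233), per the authors' deposited table. Nptx2, which clusters AMPA receptors, went from 1759 to 26499 (15.1-fold), and Rgs2 from 1973 to 19055 (9.66-fold), per the authors' deposited table. Among the 14, Fos had the largest ratio and Per1 the smallest. Plk2, Mdm2, Syt10 and Gpr3, which are also on the list, were not called. Of 15 members in the promoter table, 5 held the TCGTG site (33.3%), Bdnf, Rgs2 and Plk2 with 2 or more. The share was 15.2% over all genes of that table, 24.2% over the higher genes, 31.8% over the activity-induced effectors and 41.4% over genes 8-fold or more higher, and 6 of the 7 genes nearest to Npas4 in the promoter table held it.

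Npas4 lies on chromosome 19 of the mouse genome. In the GENCODE M21 annotation it has 3 transcripts, its coding transcript has 8 exons, and 0 other genes have exons that overlap its own on either strand. Of its 10 nearest protein-coding neighbours in the RefSeq annotation (GRCm38.p6), 5 on each side, 0 were listed by the authors, where 2.25% of all tested genes were called. They include Slc29a2 and Mrpl11.

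Markers of hippocampal cells bear on where the RNA came from. None of the 7 general neuronal markers, of the 5 CA1 and 4 other pyramidal cell markers, of the 6 interneuron markers or of the 5 astrocyte markers was called, and since uncalled genes are not listed, the tissue label could not be checked by level. Of 6 dentate granule cell markers 2 were lower: Lct at 0.342 and Dsp at 0.353 of sham, per the authors' deposited table. Of 6 microglia markers 2 were higher and of 3 neutrophil markers 2 were higher, against 1.47% of all tested genes called higher and 0.784% lower. The marker sets too were drawn up with earlier results of these data known, so none of these counts is a test. The 2 neutrophil markers began from few reads. S100a8 went from 10.5 to 71.1 normalised reads (6.78-fold) and S100a9 from 4.64 to 59.6 (12.9-fold), per the authors' deposited table. Of 6 oligodendrocyte markers 3 were higher, among them Cldn11 (1.35-fold) and Cnp (1.34-fold), per the authors' deposited table. Of 4 endothelial markers 1 was lower, Sox18 at 0.462 of sham, and of 3 markers of oligodendrocyte precursors 1 was lower, Gpr17 at 0.703, per the authors' deposited table. The part of these shifts in the Npas4 values was not tested.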

How the data were processed

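Hippocampal RNA of 3 ischemia and 3 sham samples was sequenced. The submitters' processing notes name the aligner Bowtie (0.12.2) and the mouse build mm8 but not what each was for. Per the file headers and identifiers, 612 of 637 genes carry an Ensembl BALB/cJ identifier, so a different annotation was counted. The authors deposited a read signal per gene (normalised read count, mean of each group), its log2 fold change, and the p-value before and after adjustment. How reads were counted, by strand or not, how they were normalised and which test was used, the sources used here do not give. The deposited log2 fold change equals the log2 ratio of the 2 means within 5.0e-05. The table has 0 columns per sample and no library totals. Nothing says that samples are separate animals, so the p-values may reflect technical spread only.

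The number of tested genes, 28319, was inferred as the one for which Benjamini-Hochberg adjustment returns the listed values in 636 of 637 rows, so that 637 calls are 2.25%. On a simulated table of 20000 genes the search returned 20000. Whole reads were separated from means of at most 700 by lattice reduction of the 12 lowest means. Of 259 such sham means 203 had 1 solution, and of 227 such ischemia means 141 had 1. In simulated tables of 637 genes, 1263 of 1477 means had 1 solution, and each of the 1263 was correct. Single solutions were more frequent there than in the real means, so the simulated tables were easier to separate. The separation of Npas4 and the implied standard errors were added after the data were seen.

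Members and lists were chosen with earlier results of these data known, and the lists contain genes proposed for that reason. Named genes, taken among genes with a symbol, were the 8 nearest to Npas4 in both means, the 8 nearest in sham mean, the 5 highest in ischemia, the 5 with the largest fold above 50 normalised reads, the 5 with the smallest p-values and up to 15 called members a list; some are not reported here. Exon lengths came from GENCODE M21 by symbol, for 564 of 637 genes (88.5%). Alternatives were pseudocounts, centring, filters, levels per kilobase and omission of sham libraries. Python 3.11.15, numpy 2.4.6, scipy 1.17.1, sympy 1.14.0 and matplotlib 3.10.9 were used.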

Additional observations from a re-analysis of the deposited data

How the results depend on the processing

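The log2 fold change of Npas4 was 6.26 as deposited, 6.25 with a pseudocount of 1 and 6.15 with a pseudocount of 50. Centred on the median of the listed genes with means of at least 50 (0.62), it was 5.64. Without single sham libraries it lay between 5.72 and 8.84 over the 3 possible separations; it was 7.34 without library C in the second and 8.84 without library A in the third, the library with most reads in each. These omissions were chosen after seeing the data, and the omissions planned for genes with 1 separation were not run, as Npas4 had none. Its rank by fold among higher genes moved from 5 to 1 with means of at least 50, to 2 with a pseudocount of 1 and to 1 with a pseudocount of 50, since the genes ahead of it were near 0 in sham. Its rank by ischemia mean moved from 6 to 11 per kilobase of exon. Of the 8 genes with a symbol most like Npas4, 4 were shared with the nearest 8 per kilobase and 2 with the nearest 8 by log2 fold change alone. Of the calcium signalling list, 0 higher and 0 lower members remained once a log2 change of 1 or more in size was required, from 1 and 1. The counts of the other 4 lists and the 2 shares stayed within 1.5 times. No paired analysis was possible because the table gives 1 mean per group and the separated libraries carry no replicate number. The depth of each library is unknown, and only means of at most 700 normalised reads could be separated.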
